A study of Mus musculus with 1824 samples.

Results

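Single cells of 4 numbered E7.5 chimera embryos were compared, embryos 1 and 2 on one side and embryos 4 and 5 on the other. A well entered the comparison when it held at least 100000 reads. This left 365 of the 1824 wells of the series, 186 from embryos 1 and 2 and 179 from embryos 4 and 5, while 1649 wells of the whole series reached that depth. Embryo by embryo, 92, 94, 91 and 88 of 96 wells passed. The comparison took the make-up of each embryo first and then expression in the cells that remained once extraembryonic ectoderm and visceral endoderm cells had been set aside.

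The embryos were chimaeras at embryonic day 7.5. *Tet* triple knockout (*Tet*-TKO) embryonic stem (ES) cells, which lack all TET enzymes and carry an H2B-tdTomato label, had been injected into wild-type C57BL/6J blastocysts and transferred to CD1 recipients, and the labels give the strain as CD1 and the tissue as E7.5 embryo for every cell. Both sides thus share the same knockout line and the same kind of host. RNA was read by Smart-seq2, a full-length method on plates without molecular identifiers, and the labels describe treatment with the methylase M.CviPI, which marks open chromatin, for every well. The study's methods state that some cells went without the methylase and some were used for RNA alone, which the labels do not tell apart, and DNA assays are not analysed here. Neither genotype nor sort fraction is labelled for single wells, so knockout and host cells were not told apart. In other single-cell data of its chimaeras, the study reports no contribution of injected cells to extraembryonic ectoderm. The origin of the cells used here was not tested. Each numbered embryo filled 1 plate, so embryo, plate and sort cannot be told apart. The study's methods describe pooling of chimeric embryos before dissociation, so a numbered plate may hold cells of more than 1 animal.

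At this stage the mouse conceptus holds several lineages side by side. The epiblast forms the embryo proper and sends cells through the primitive streak to become mesoderm and endoderm. The extraembryonic ectoderm descends from the trophectoderm of the blastocyst and contributes to the placenta, and the visceral endoderm descends from the primitive endoderm and nourishes the embryo. ES cells resemble the early epiblast.

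Depth differed between the plates. Median reads per passing cell were 753188, 985218, 637314 and 533718 in embryos 1, 2, 4 and 5. After each cell was thinned to 100000 reads, the median number of detected genes was 7602, 7706, 7616 and 7364.5, so the plates lay closer to each other than without thinning, where the medians were 9536.5, 9727, 9149 and 8746.5. The median mitochondrial share of reads was 2.85%, 2.04%, 2.58% and 2.88%. No passing cell (0 of 365) exceeded the limits for mitochondrial and ribosomal reads given in the study's methods.

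Embryos 4 and 5 held many extraembryonic ectoderm and visceral endoderm cells, and embryos 1 and 2 held almost none. A cell was assigned to a class when at least 3 of the 6 markers of that class reached 20 counts per 1000000 reads (CPM), and a cell could meet several classes. Extraembryonic ectoderm was scored with *Elf5*, *Rhox5*, *Rhox6*, *Rhox9*, *Ascl2* and *Wfdc2*. It made up 1 of 92 cells in embryo 1 (1.09%, 95% exact binomial interval 0.0275 to 5.91) and 0 of 94 in embryo 2, which allows a share of up to 3.19% when a count of 0 is taken to allow 3 cells, or 3.85% as the exact upper limit. In embryo 4 it made up 45 of 91 cells (49.5%, 38.8 to 60.1), and in embryo 5 it made up 30 of 88 (34.1%, 24.3 to 45). Visceral endoderm, scored with *Ttr*, *Apoa1*, *Apob*, *Afp*, *Amn* and *Cubn*, was met by 0 cells of embryos 1 and 2, with limits of 3.26% and 3.19% by 3 cells and 3.93% and 3.85% by the exact interval. It was met by 12 cells of embryo 4 (13.2%, 7.00 to 21.9) and 13 cells of embryo 5 (14.8%, 8.11 to 23.9), 1 of which also met the extraembryonic ectoderm rule. The sides do not overlap in either class. These shares are given as a description, because the embryos were paired with their make-up already known, and 2 against 2 embryos allow no exact two-sided permutation p below 0.333.

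**Figure D1:**
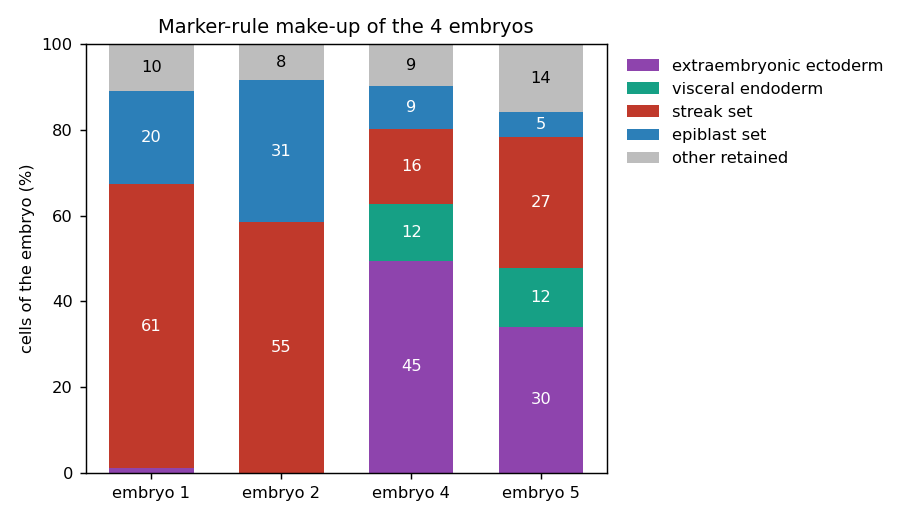
Stacked shares of passing cells (%) for embryos 1, 2, 4 and 5, with each cell counted once. Cells were placed in the order extraembryonic ectoderm, visceral endoderm, streak rule (streak set), epiblast rule (epiblast set) and all others (other retained). Figures inside the bars are cell counts, and no intervals are drawn. Extraembryonic ectoderm stood at 49.5% and 34.1% in embryos 4 and 5, against 1.09% and 0% in embryos 1 and 2.

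The marker rule separated visceral endoderm sharply and extraembryonic ectoderm less so. All 12 visceral endoderm cells of embryo 4 had all 6 markers, as had 8 of the 13 in embryo 5. Among the extraembryonic ectoderm cells, 15 in embryo 4 and 10 in embryo 5 met exactly 3 markers. Just outside the rule, with 2 of 6, lay 9 cells of embryo 4, 13 of embryo 5, 4 of embryo 1 and 0 of embryo 2. Exactly 1 marker was met by 38, 44, 19 and 25 cells of embryos 1, 2, 4 and 5, so single markers were not confined to embryos 4 and 5. The 1 extraembryonic ectoderm cell of embryo 1 met exactly 3 markers and had no read of *Elf5*, and its *Pou5f1* level of 132 CPM and *Mixl1* level of 181 CPM set it apart from the cells of embryos 4 and 5 that met the rule. Both classes were found on the left and the right of the plates. In well columns 1 to 6 and 7 to 12, embryo 4 had 26 and 19 extraembryonic ectoderm cells and embryo 5 had 16 and 14. Visceral endoderm was less even in embryo 4, with 2 and 10 cells, and numbered 6 and 7 in embryo 5.

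The leading markers showed the same split over the summed reads of all passing cells. *Elf5*, a transcription factor of trophoblast stem cells, stood at 0.215, 0.0668, 136 and 81.2 CPM in embryos 1, 2, 4 and 5. *Ttr*, the thyroid hormone carrier transthyretin made by visceral endoderm, stood at 0, 0.824, 1168 and 241 CPM. *Pou5f1*, the pluripotency factor OCT4, went the other way, with 364, 452, 86.4 and 121 CPM. *Mixl1*, a homeobox gene of the primitive streak, stood at 450, 403, 104 and 202 CPM. For each of these genes both embryos of one side lay above both of the other. Since these genes lead the class rules and the make-up was known when the embryos were paired, this describes the make-up again. Sums over cells cannot tell fewer cells of a type from less RNA per cell, so the levels within classes are given next.

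Within the extraembryonic ectoderm cells, the trophoblast genes given here were high, and *Pou5f1*, *Fgf5* and *Slc7a3* of the epiblast list were near 0. *Elf5* and *Rhox5* belong to the rule that chose these cells. *Elf5* stood at 238 CPM in embryo 4, where 45 of 45 cells reached 20 CPM, and at 185 CPM in embryo 5, where 27 of 30 did. *Rhox5*, an X-linked homeobox gene, stood at 1370 and 1651 CPM. *Pou5f1* was 0.0334 and 0.184 CPM in the same cells, and no cell (0 of 45 and 0 of 30) reached 20 CPM. The other 3 genes of the epiblast list were found in these cells. *Utf1*, a chromatin-bound factor of pluripotent cells, stood at 297 and 272.27 CPM, *Pim2*, a kinase gene, at 28.6 and 30.4 CPM, and *Sox2*, a transcription factor also known from trophoblast stem cells, at 25.4 and 19.6 CPM. The epiblast rule was also met by 14 of the 45 and 7 of the 30 cells. Other trophoblast genes that the rule did not use were also found there, as a description of these cells. *Tfap2c* stood at 356 and 227 CPM, *Esrrb* at 101 and 101 CPM, and *Bmp8b*, a BMP ligand, at 161 and 140 CPM. *Dnmt3l*, a cofactor of the de novo DNA methyltransferases, stood at 161 and 149 CPM, while the methyltransferase gene *Dnmt3a* was low at 18.6 and 18.2 CPM and *Dnmt3b* was high at 1102 and 820 CPM. *Tet1*, one of the enzymes missing from the injected line, stood at 114 and 76.5 CPM.

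The visceral endoderm cells carried a different programme. *Ttr* stood at 8660 CPM in embryo 4 and 1832 CPM in embryo 5, and *Afp*, which encodes alpha-fetoprotein, at 3869 and 790 CPM. All 6 markers were lower in embryo 5 than in embryo 4. *Rhox5* reached 20 CPM in 12 of 12 cells of either embryo that met visceral endoderm alone, so this marker is shared by both extraembryonic classes. *Elf5* was at 0.497 and 0 CPM there. *Dnmt3l* had no read in these cells of either embryo, whereas *H19*, an imprinted non-coding RNA abundant in extraembryonic tissue, stood at 801 and 338 CPM.

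**Figure D2:**
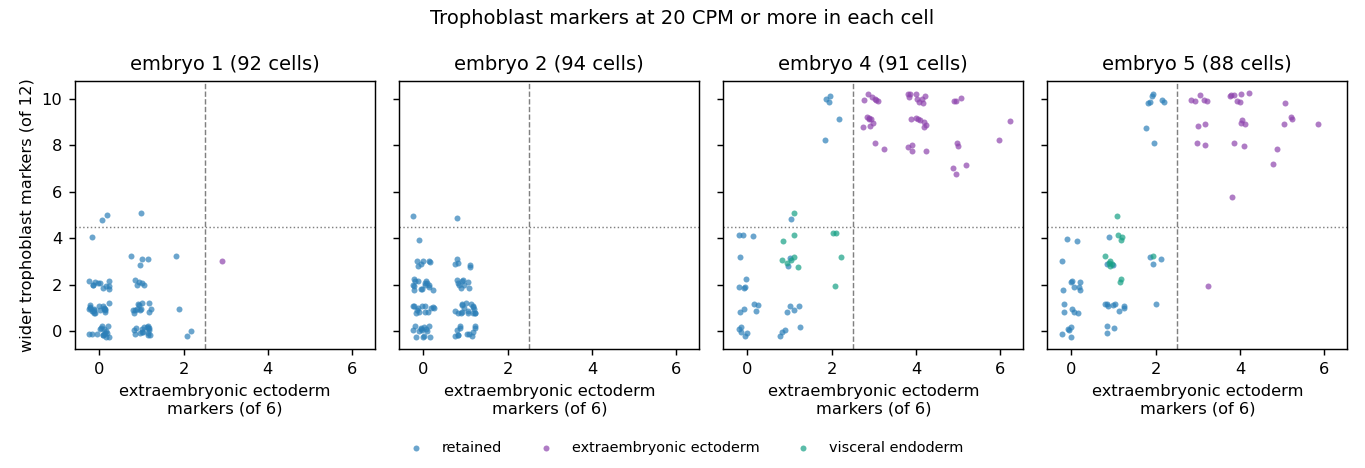
Number of the 6 extraembryonic ectoderm markers (horizontal) and of 12 further trophoblast markers (vertical) at 20 CPM or more in each passing cell of embryos 1, 2, 4 and 5, with points shifted slightly at random so that they do not cover each other. Cells with many markers on both axes are found in embryos 4 and 5, and some of these with 5 or more further markers lie left of the limit of 3 and were therefore retained.

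*Elf5* and *Pou5f1* are shown with the sequence before their start sites because they lead the trophoblast and epiblast lists and had opposite levels in the classes above. The letters are the 250 bases upstream of each RefSeq start on GRCm38.p6, plus strand, and capitals mark CG dinucleotides, the sites where DNA methylation is placed in mammals. *Elf5* start 1 lies at chr2:103411848-103412097, where all 250 bases fall in annotated exons of *Elf5*, and start 2 at chr2:103423818-103424067, where 244 bases fall in its introns and 6 in exons. *Pou5f1* start 1 lies at chr17:35505782-35506031, where 14 bases fall in exons and the remainder before the annotated gene, and start 2 at chr17:35508557-35508806, where 248 bases fall in introns.
Elf5 start 1: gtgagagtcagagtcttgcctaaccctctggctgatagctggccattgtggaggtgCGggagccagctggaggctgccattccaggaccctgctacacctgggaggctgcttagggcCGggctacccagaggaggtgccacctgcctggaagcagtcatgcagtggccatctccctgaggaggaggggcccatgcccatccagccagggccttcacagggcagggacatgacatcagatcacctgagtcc
Elf5 start 2: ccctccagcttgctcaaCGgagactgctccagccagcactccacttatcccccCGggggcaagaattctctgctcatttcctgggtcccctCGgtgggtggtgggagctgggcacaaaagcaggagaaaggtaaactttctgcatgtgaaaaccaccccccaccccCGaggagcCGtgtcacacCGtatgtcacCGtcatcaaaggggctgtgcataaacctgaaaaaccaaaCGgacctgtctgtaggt
Pou5f1 start 1: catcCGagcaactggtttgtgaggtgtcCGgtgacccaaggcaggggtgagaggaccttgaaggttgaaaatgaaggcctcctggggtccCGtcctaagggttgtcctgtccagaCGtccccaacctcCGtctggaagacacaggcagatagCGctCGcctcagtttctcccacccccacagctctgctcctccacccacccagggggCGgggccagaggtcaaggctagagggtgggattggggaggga
Pou5f1 start 2: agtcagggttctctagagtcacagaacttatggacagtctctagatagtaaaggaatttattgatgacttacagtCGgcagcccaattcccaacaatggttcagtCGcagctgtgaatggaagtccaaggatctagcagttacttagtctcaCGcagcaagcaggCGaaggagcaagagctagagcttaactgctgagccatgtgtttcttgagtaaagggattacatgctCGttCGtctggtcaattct
The windows hold 2 and 8 CG in *Elf5* and 8 and 6 in *Pou5f1*. CG reads the same on both strands. Over 32851 RefSeq promoter windows of this length the median was 6, with quartiles of 2 and 16, and 81.2%, 43%, 43% and 50.4% of all windows held at least as many as these. Counts per gene do not show which start was used.

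Epiblast and streak classes were found in all 4 embryos. The epiblast rule used *Pou5f1*, *Utf1*, *Fgf5*, *Pim2*, *Slc7a3* and *Sox2*, and 49, 58, 30 and 24 cells met it (53.3%, 61.7%, 33% and 27.3%). The rule for primitive streak and nascent mesoderm used *T*, *Mixl1*, *Mesp1*, *Eomes*, *Lefty2* and *Lhx1*, and 61, 55, 19 and 31 cells met it (66.3%, 58.5%, 20.9% and 35.2%). Of the epiblast-rule cells of embryos 4 and 5, 14 and 17 met neither extraembryonic rule, and of the streak-rule cells 16 and 27. Both shares were lower in embryos 4 and 5 at this limit. At 2 of 6 markers the epiblast shares were 72.8%, 78.7%, 75.8% and 55.7%, so that embryo 4 lay above embryo 1. Extraembryonic mesoderm was met by 35, 34, 27 and 30 cells, and definitive endoderm with axial mesendoderm by 10, 11, 10 and 14. Without cells that also met an extraembryonic ectoderm or visceral endoderm rule these numbers were 34, 34, 14 and 21, and 10, 11, 3 and 4. Haematoendothelial cells numbered 4, 5, 6 and 3, and erythroid cells 0, 0, 0 and 1. No cell (0 of 365) met the leukocyte rule or that for ectoplacental cone and giant cells.

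Cells that met neither extraembryonic rule, called retained cells, numbered 91, 94, 34 and 46 in embryos 1, 2, 4 and 5, with 69159029, 89847133, 21798123 and 23082751 reads. They were divided into a streak set, an epiblast set of cells with fewer than 3 streak markers, and the remainder. The streak set made up 67%, 58.5%, 47.1% and 58.7% of retained cells and the epiblast set 22%, 33%, 26.5% and 10.9%. The remainder was larger in embryos 4 and 5, at 26.5% and 30.4% against 11% and 8.51%. The 5 deepest cells supplied 10.8%, 8.53%, 23.4% and 18.3% of the retained reads, so fewer cells decide the sums of embryos 4 and 5.

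Retained cells of embryos 4 and 5 still included cells with trophoblast genes. Of 12 further trophoblast markers that the rule did not use, among them *Cdx2*, *Esrrb*, *Tfap2c*, *Sox21*, *Plac1*, *Tex19.1*, *Zfp42*, *Trap1a*, *Xlr3a*, *Rhox4b* and *Fgfr2*, 5 or more were at 20 CPM or above in 3, 2, 6 and 8 retained cells. All such cells of embryos 1 and 2 had exactly 5, whereas 5 of the 6 in embryo 4 and 8 of 8 in embryo 5 had 8 to 10, as had most cells already set aside (median 9 in either embryo). These few cells held 2.82%, 2.52%, 19.7% and 14.4% of the retained reads. They numbered 1, 1, 0 and 0 in the streak set. The summed level of the 12 markers was 106, 122, 484 and 440 CPM over retained cells, with 1, 1, 0 and 0 markers at 0, and 122, 135, 105 and 127 CPM over the streak set, with 1, 1, 2 and 1 at 0. The 6 visceral endoderm markers summed to 1.75, 2.90, 12.8 and 6.54 CPM over retained cells. Values without the cells at 5 or more markers, an alternative chosen after the data were seen, and values in the streak set are therefore given beside the main results below.

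Over retained cells, 23 genes were higher in embryos 4 and 5 and none was lower. Reads were summed per numbered embryo, so that n = 2 plates a side, and tested with edgeR's quasi-likelihood test. The limits were an adjusted p under 0.01 and an absolute log2 fold change of at least 1. Of 14282 genes tested, the 23 higher are 0.161% and the 0 lower are 0%. At an unadjusted p under 0.05, 1027 genes were higher and 793 lower. DESeq2 called 228 higher and 69 lower on the same sums, and limma on mean CPM per cell called 76 and 3. All 23 genes had both embryos of one side above both of the other, which holds in the same direction for 24.7% of all genes tested. The 23 had been called for a difference between the sides, so this is a description only. Single embryos weighed heavily. Without embryo 1, 2, 4 or 5 in turn, 2, 8, 115 and 139 genes were called higher and 0, 0, 46 and 134 lower, with the lone sample assumed to vary like the other side. Of the 23, 17 are protein-coding, 6 lie on the X and 1 on the Y chromosome.

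For most of the called genes, most of the embryo 4 and 5 reads came from the few remaining trophoblast-marked cells. In 11 of the 23, over 80% of the retained reads of both embryos 4 and 5 came from the cells with 5 or more further trophoblast markers, and in 15 over 50% did. In 21 of the 23, the extraembryonic ectoderm cells set aside had a higher level than the retained cells in both embryos, *Rps2-ps13* and *Asb4* being the others. Without the trophoblast-marked cells, 20 of the 23 were tested and 17 were still higher in embryos 4 and 5. Of the 20, 15 had both of these embryos above both others (22.6% of all genes in that fit). For 12 of the 20, less than 50% of the log2 difference remained, and 2 were called, of 14220 genes tested. The 23 had been chosen for their difference over retained cells, and this fit reuses most of those cells. These counts are therefore a description and no further test. *Elf5* and *Rhox5* were themselves part of the rule that set cells aside, so their retained levels describe cells with fewer than 3 markers. *Xlr3a* belongs to the further trophoblast markers that chose the trophoblast-marked cells, so its share of reads there follows in part from that choice.

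**Figure D3:**
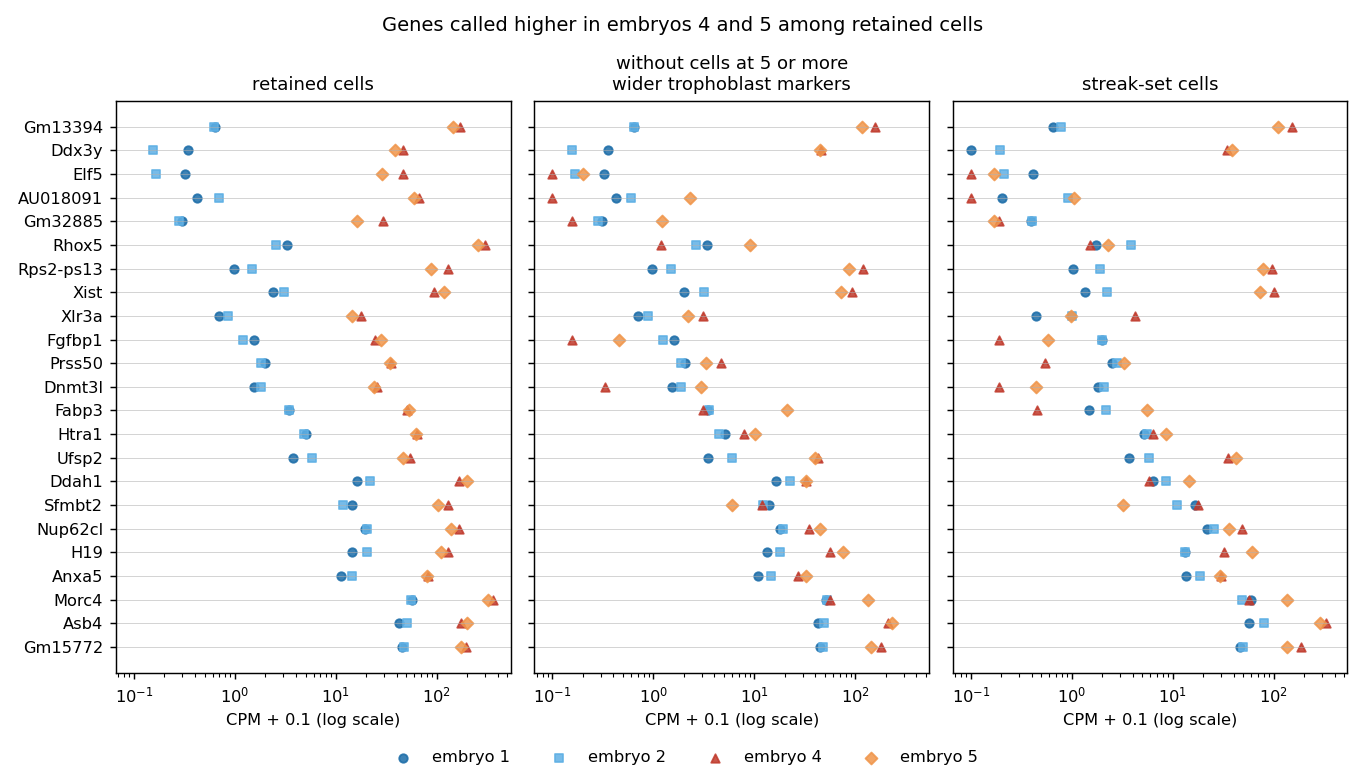
CPM plus 0.1 on a log scale for the 23 genes called higher in retained cells of embryos 4 and 5, by embryo, in retained cells (left), without cells at 5 or more further trophoblast markers (middle) and in the streak set (right). *Elf5*, *Rhox5* and *Dnmt3l* overlap between the sides in the middle panel, while *Gm13394*, *Rps2-ps13*, *Xist*, *Ddx3y* and *Asb4* stay apart in all panels.

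*Elf5* (chr2:103411688-103450989) gave 0.217, 0.0668, 45.9 and 28.6 CPM over the retained cells of embryos 1, 2, 4 and 5. Its log2 fold change was 8.02 ± 0.59 (SE, adjusted p = 0.00808, edgeR). The trophoblast-marked cells held 100% and 99.7% of its reads in embryos 4 and 5, and without them its levels were 0.223, 0.0685, 0 and 0.101 CPM. *Rhox5* (chrX:37804842-37808876) gave 3.21, 2.46, 297 and 255 CPM, a log2 fold change of 6.55 ± 0.23 (adjusted p = 0.00103). Its levels were 1.62, 3.78, 1.42 and 2.19 CPM in the streak set, where the sides overlapped. *Dnmt3l* (chr10:78041947-78063622) gave 1.46, 1.73, 25.4 and 23.6 CPM, a log2 fold change of 3.89 ± 0.27 (adjusted p = 0.0071). Without the trophoblast-marked cells its log2 fold change was -0.09, and 99.3% and 89.7% of its reads had come from them.

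Several less known genes also had most of their embryo 4 and 5 reads in those cells. *AU018091* gave 0.318, 0.590, 66 and 59.2 CPM over retained cells, and the non-coding *Gm32885* gave 0.202, 0.178, 29.2 and 15.9 CPM. *Fgfbp1*, which encodes an FGF-binding protein, gave 1.46, 1.11, 24.4 and 28 CPM, a log2 fold change of 4.29 that became -2.69 without the trophoblast-marked cells. *Prss50*, a protease gene, gave 1.88, 1.71, 35 and 33.9 CPM, and *Xlr3a*, an X-linked gene, 0.593, 0.757, 17.4 and 14.3 CPM. The trophoblast-marked cells held between 86% and 100% of the embryo 4 and 5 reads of these 5 genes. For *Xlr3a*, a member of the further trophoblast list, this follows in part from how those cells were chosen. Without them *Prss50* gave 1.93, 1.76, 4.63 and 3.24 CPM and *Xlr3a* 0.610, 0.776, 3.03 and 2.125 CPM, with no overlap between the sides in either. *Sfmbt2*, an imprinted Polycomb-associated gene of the placenta, gave 14.4, 11.7, 129 and 103 CPM over retained cells and 13.8, 12, 11.9 and 5.92 CPM without those cells.

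*Gm13394* and *Rps2-ps13* were the genes still called when the trophoblast-marked cells were left out. *Gm13394*, a processed pseudogene (chr2:28933610-28934609), gave 0.535, 0.523, 171 and 145 CPM over retained cells, the largest log2 fold change of the 23 at 8.17 ± 0.21 (adjusted p = 0.000302, edgeR). It was called without the trophoblast-marked cells (log2 7.92, adjusted p = 0.00194), and over the alternatives of the retained-cell fit that tested it the adjusted p ran from 4.79e-250 to 0.00965. Without embryo 4 or without embryo 5 it was below the filter of 1 CPM in at least 2 sums and was not tested, and in the epiblast set it missed the threshold (adjusted p = 0.0136, edgeR). In the streak set it gave 0.548, 0.673, 152 and 109 CPM and was the 1 gene called of 14050 (log2 7.69 ± 0.30, adjusted p = 0.00774, edgeR), a share of 0.00712%. *Rps2-ps13*, a processed pseudogene on the X chromosome (chrX:52898588-52899469), gave 0.882, 1.38, 128 and 87.4 CPM over retained cells (log2 6.51 ± 0.32, adjusted p = 0.00251). It was also called without those cells (log2 6.46, adjusted p = 0.00832; over the alternatives of the retained-cell fit from 3.74e-146 to 0.0448), and missed the threshold in the streak set (log2 5.96, adjusted p = 0.0319, edgeR). In the epiblast set *Rps2-ps13* was the 1 gene called of 13752, 0.00727% (log2 8.37 ± 0.28, adjusted p = 0.00345, edgeR). Another processed pseudogene, *Gm15772*, gave 44.9, 47.4, 194 and 175 CPM over retained cells and 45.8, 49.1, 187 and 134 CPM in the streak set, with log2 fold changes of 1.95 and 1.71. Processed pseudogenes share sequence with a parent gene, and how reads with several matches were counted is not given in the sources used here, so these levels are uncertain.

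*Asb4*, which encodes an ankyrin-repeat adaptor of a ubiquitin ligase, was near 0 in the extraembryonic ectoderm cells and higher in retained cells of embryos 4 and 5. It gave 41.9, 50.4, 173 and 197 CPM over retained cells (log2 1.96 ± 0.15, adjusted p = 0.00854, edgeR). Its level in the extraembryonic ectoderm cells of embryos 4 and 5 was 0.0669 and 0.123 CPM, and the trophoblast-marked cells held 1.35% and 0.0220% of its retained reads. In the streak set it gave 57.3, 80.1, 328 and 284 CPM, a log2 fold change of 2.12 that missed the threshold (adjusted p = 0.0956). It gave 42.5, 48.7, 212 and 230 CPM without the trophoblast-marked cells (log2 2.24, adjusted p = 0.0157, edgeR). *Ufsp2*, a protease gene of the UFM1 pathway, gave 3.63, 5.73, 53.9 and 46.1 CPM over retained cells and 3.56, 5.74, 35 and 42.1 CPM in the streak set. Its levels were 3.38, 5.88, 42.6 and 39.7 CPM without the trophoblast-marked cells (log2 3.12, adjusted p = 0.102, edgeR). *H19* gave 14.4, 20.3, 128 and 109 CPM over retained cells (log2 2.73 ± 0.20, adjusted p = 0.00788) and 13.1, 13.1, 32.3 and 60.4 CPM in the streak set (log2 1.79, adjusted p = 0.606). Without the trophoblast-marked cells *H19* gave 13.2, 17.9, 55.6 and 75.6 CPM (log2 2.04, adjusted p = 0.155, edgeR). For all 3 genes both embryos of the 4 and 5 side lay above both others in each of these sets of cells. Over all genes this held for 24.7% in retained cells, 22.6% without the trophoblast-marked cells and 20.2% in the streak set. All 3 are among the 23 called genes, so their separation is a description only.

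*Xist* and the Y-linked gene *Ddx3y* were among the 23. *Xist* (chrX:103460366-103483254), the non-coding RNA made from the inactive X chromosome of female cells, gave 2.27, 2.97, 94.5 and 117 CPM over retained cells (log2 5.29 ± 0.23, adjusted p = 0.00223, edgeR). In the streak set it gave 1.26, 2.15, 100.4 and 73.7 CPM (log2 5.63, adjusted p = 0.0319). *Ddx3y*, an RNA helicase gene of the Y chromosome, gave 0.246, 0.0557, 46.1 and 38.7 CPM over retained cells (log2 8.13 ± 0.60, adjusted p = 0.00808) and 0, 0.0935, 34.3 and 38.9 CPM in the streak set. Without the trophoblast-marked cells *Xist* gave 1.905, 3.05, 93.2 and 71.5 CPM (log2 5.01, adjusted p = 0.0155) and *Ddx3y* 0.253, 0.0571, 45.8 and 44.2 CPM (log2 8.18, adjusted p = 0.0381, edgeR). The other 3 Y-linked genes were not called by edgeR, while limma called *Eif2s3y* and DESeq2 called *Uty*. *Eif2s3y* gave 0.0145, 1.29, 32.3 and 24.8 CPM, *Kdm5d* 0.578, 0, 14.4 and 1.60 CPM, and *Uty* 4.15, 5.04, 28.3 and 9.44 CPM over retained cells. Among the Y-linked genes *Uty* was thus highest in embryos 1 and 2 and *Ddx3y* in embryos 4 and 5. The summed Y-linked signal used below may therefore rest on different genes on the sides.

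Cell by cell, most cells of embryos 1 and 2 had neither *Xist* nor Y-linked RNA. *Xist* at 20 CPM or more was found in 4, 5, 37 and 38 passing cells with no such Y signal, the sum of 4 Y-linked genes (*Ddx3y*, *Eif2s3y*, *Kdm5d*, *Uty*) at 20 CPM or more in 6, 7, 40 and 32, and both in 0, 0, 4 and 1. Neither was found in 82, 82, 10 and 17 cells (89.1%, 87.2%, 11% and 19.3%). Among retained cells the share with neither was 89% (95% exact interval 80.7 to 94.6), 87.2% (78.8 to 93.2), 29.4% (15.1 to 47.5) and 34.8% (21.4 to 50.2). All extraembryonic ectoderm cells of embryos 4 and 5 had one or the other (0 of 45 and 0 of 30 with neither). Cells with neither were not the shallower ones throughout. In retained cells their median reads were 801625, 961605, 679740 and 554056, against 651386, 1161180, 649508 and 480780 in the others, higher in embryos 1, 4 and 5 and lower in embryo 2. On the other 7 E7.5 plates of the series the share with neither ran from 1.08% to 93.6%. The split in *Xist* and Y-linked RNA thus runs along the same embryos as the make-up and the called genes, and its part in the expression results was not tested.

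**Figure D4:**
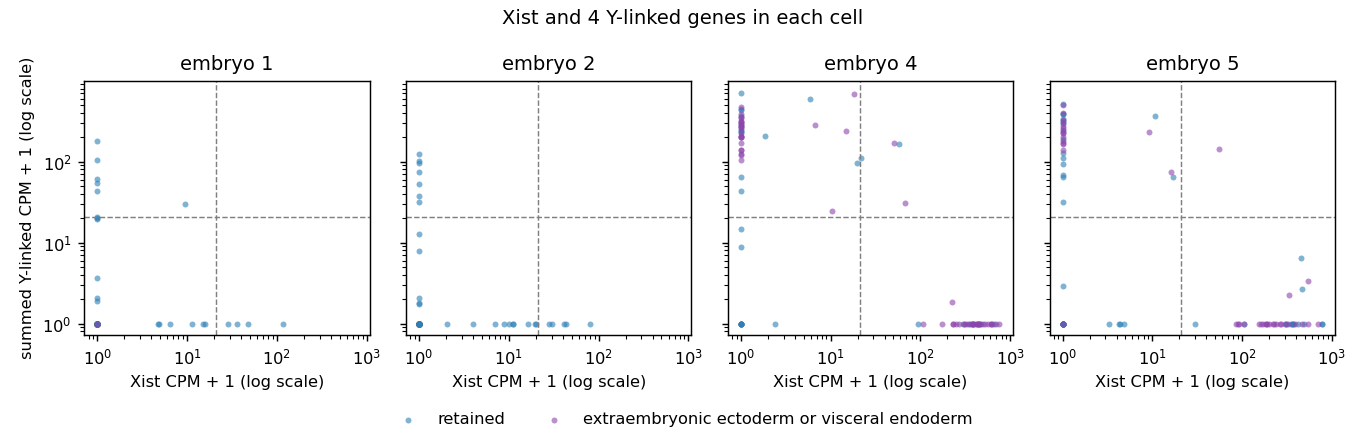
*Xist* CPM plus 1 (horizontal) against the summed CPM plus 1 of 4 Y-linked genes (vertical), both on log scales, for each passing cell of embryos 1, 2, 4 and 5, with dashed lines at 20 CPM. Cells of embryos 1 and 2 crowd the lower left corner, where 82 and 82 of them lie below both lines, against 10 and 17 in embryos 4 and 5.

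Lists of lineage genes were compared over retained cells next, each by its count of calls and its median beside that of all genes tested, 0.00 on the log2 scale. Of all 14282 genes tested over retained cells, 1027 were higher and 793 lower at an unadjusted p under 0.05 by edgeR. DESeq2 called 228 and 69 of them, and limma called 76 and 3 genes. The list counts below are to be read beside these. Of the 6 epiblast genes, 0 were called by edgeR, with 0 higher and 4 lower at an unadjusted p under 0.05, 1 lower call by DESeq2 and none by limma. Their median log2 fold change was -0.80, and 4 of 6 lay below both other embryos in embryos 4 and 5, against 18.3% of all genes. *Pou5f1* gave 366, 452, 236 and 236 CPM (log2 -0.84 ± 0.11, adjusted p = 0.0542). *Slc7a3*, an amino acid transporter gene, gave 173, 234, 69.5 and 68.5 CPM (log2 -1.60 ± 0.15, adjusted p = 0.0175). *Sox2* gave 7.74, 6.37, 9.73 and 6.67 CPM, with overlap. Over the streak set *Pou5f1* gave 323, 296, 209 and 321 CPM, with overlap, and the median of the 6 genes was -0.22, with 1 of 6 below both others (17.3% of all genes). Without the trophoblast-marked cells the median was -0.85, and 6 of 6 lay below both others (17.6% of all genes in that fit). There 5 were lower at an unadjusted p under 0.05, against 616 of all 14220 genes, and 0 were called by edgeR. In the epiblast set the median was -0.87, with 5 of 6 below both others (23% of all genes). At that p 5 were lower, against 997 of all 13752 genes. Of the 6, 0 were called by edgeR and 2 were called lower by DESeq2, which called 58 of all genes lower. The same 6 genes chose the cells of that set. Of its cells, 3 of 9 in embryo 4 and 3 of 5 in embryo 5 were trophoblast-marked. The values there are therefore a description and no test of the list.

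Of the 6 streak genes, 0 were called over retained cells, with 0 higher and 2 lower at an unadjusted p under 0.05 and 0 calls by DESeq2 or limma. *T*, which encodes the mesoderm factor Brachyury, gave 177, 153, 121 and 118 CPM (log2 -0.52 ± 0.15, adjusted p = 0.243). *Mixl1* gave 453, 403, 260 and 392.02 CPM (log2 -0.45 ± 0.22, adjusted p = 0.477), and *Mesp1*, a factor of nascent mesoderm, gave 141, 160, 75.2 and 103 CPM. *Lefty2*, a Nodal inhibitor, gave 50.6, 39.8, 83 and 50.1 CPM, with overlap. The median log2 fold change of the list was -0.34 over retained cells, -0.23 without the trophoblast-marked cells and -0.26 in the streak set. The same genes chose the cells of the streak set, so the value there is a description only.

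Haematoendothelial genes lay on the other side. Their median log2 fold change over retained cells was 1.52, and 5 of 6 lay above both other embryos, against 24.7% of all genes. None (0 of 6) was called by edgeR or limma. At an unadjusted p under 0.05 by edgeR 5 were higher (1027 of all 14282 genes), and DESeq2 called 2 (228 of all genes). The median was 1.85 without the trophoblast-marked cells. In the streak set 5 of the 6 were tested, with a median of 0.20 and 2 above both others (20.2% of all genes). There 1 was higher at an unadjusted p under 0.05 in the edgeR test (532 of all 14050 genes), and edgeR and DESeq2 called 0. *Kdr*, the VEGF receptor of endothelial and blood progenitors, gave 162, 188, 329 and 244 CPM (log2 0.66 ± 0.16, adjusted p = 0.181). *Lmo2*, a cofactor of blood formation, gave 3.41, 5.12, 13.5 and 28.9 CPM (log2 2.28 ± 0.44, adjusted p = 0.125), and *Tal1*, its partner, 2.76, 6.29, 16.5 and 15.3 CPM. Cells that met the haematoendothelial rule made up 4.40%, 5.32%, 17.6% and 6.52% of retained cells, 3 to 6 cells an embryo. Without these cells the log2 fold change of *Lmo2* was -0.24. *Lmo2* is one of the 6 genes of the rule that chose them, so this drop follows in part from that choice. In the streak set *Lmo2* gave 2.05, 5.41, 6.22 and 1.98 CPM, with overlap.

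**Figure D5:**
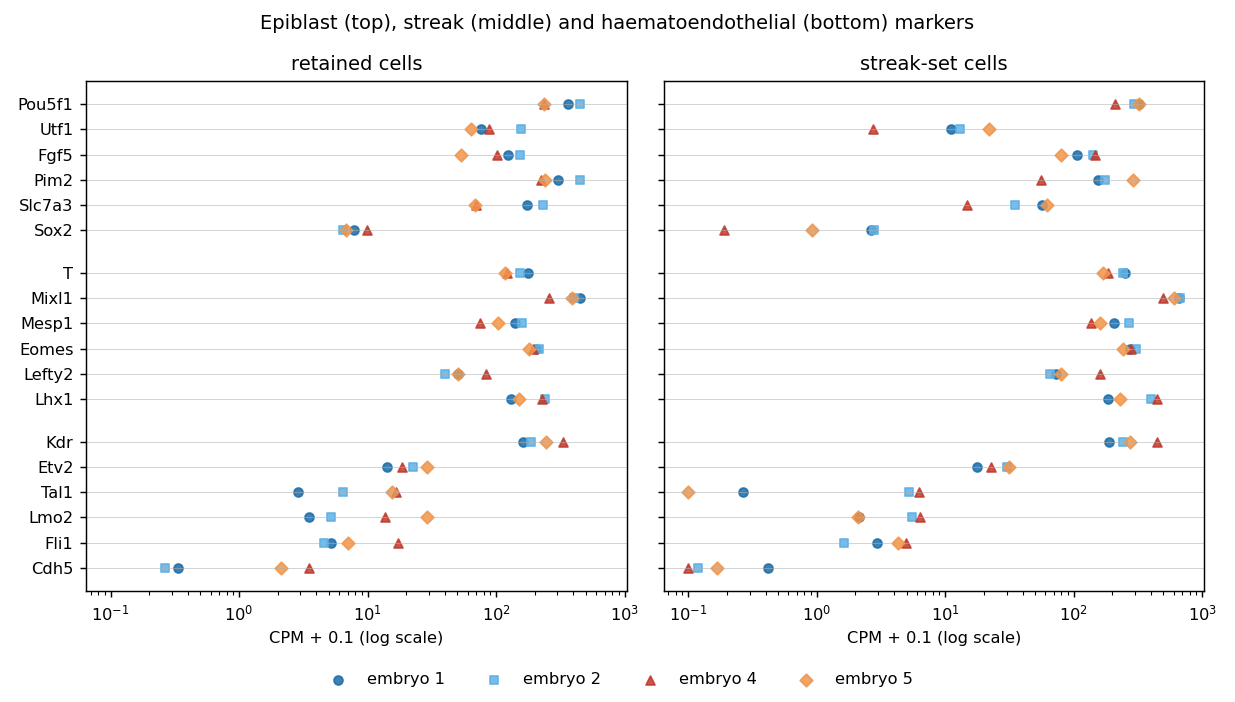
CPM plus 0.1 on a log scale for the epiblast (top), streak (middle) and haematoendothelial (bottom) markers in embryos 1, 2, 4 and 5, over retained cells (left) and the streak set (right). *Pou5f1* and *Slc7a3* lie lower in embryos 4 and 5 among retained cells and overlap in the streak set.

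The 12 further trophoblast genes had a median log2 fold change of 2.71 over retained cells, with 11 tested, *Xlr3a* called by edgeR, and 8 called by DESeq2 and by limma. They had been counted per cell to find the trophoblast-marked cells, so this describes those cells again. *Esrrb*, an orphan nuclear receptor gene, gave 0.0578, 0.200, 29.6 and 12.8 CPM (log2 7.24 ± 0.72, adjusted p = 0.0219), and *Fgfr2*, the receptor through which FGF maintains trophoblast stem cells, gave 13.7, 13.3, 55.3 and 67.8 CPM (log2 2.14 ± 0.20, adjusted p = 0.0174). *Cdx2*, which posterior mesoderm also expresses, gave 36.7, 39, 42.7 and 45.1 CPM. For the streak set the median of the 8 genes tested was -0.11. Of the 6 extraembryonic ectoderm rule genes, 4 were tested over retained cells, where 2 were called higher by edgeR. Among these 4, 1 had a negative log2 fold change (-0.44), and 1 lay below both other embryos in embryos 4 and 5 (18.3% of all genes).

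Signalling pathways of gastrulation had no member called by edgeR. The Nodal list (16 genes tested) had a median log2 fold change of -0.06, the FGF list (16) -0.18, the Wnt list (15) -0.15 and the BMP list (16) 0.16. These medians were 0.06, -0.17, 0.05 and 0.33 without the trophoblast-marked cells, so the sign of the Nodal and Wnt medians turned. At an unadjusted p under 0.05 the edgeR test put 1027 of all 14282 genes higher and 793 lower. It put 1 higher and 4 lower in the Nodal list and 2 and 5 in the FGF list. In the Wnt list it put 1 and 2, and in the BMP list 4 and 1. DESeq2 called 1 higher and 1 lower, 1 and 0, 0 and 0, and 2 and 0 in the same order, and limma 0 and 1, 1 and 0, 0 and 0, and 2 and 0. Among ligands and their cofactors, *Tdgf1*, the Nodal co-receptor, gave 630, 641, 301 and 477 CPM (log2 -0.76 ± 0.22, adjusted p = 0.254). *Gdf3*, a ligand of the same pathway, gave 7.53, 15.0, 0 and 0.390 CPM, and *Cer1*, a secreted inhibitor, 168, 258, 104 and 22.4 CPM. Among BMP genes, the ligand *Bmp8b* gave 0.145, 0.468, 33.4 and 16.9 CPM (adjusted p = 0.0246), with 99.6% and 99.0% of the embryo 4 and 5 reads in the trophoblast-marked cells. *Id2*, a target of BMP signalling, gave 38.9, 26.2, 249 and 228 CPM (log2 2.81 ± 0.24, adjusted p = 0.0128) over retained cells and 25.1, 21.9, 24.8 and 32.2 CPM, with overlap, in the streak set.

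Of 9 genes for enzymes of DNA methylation and demethylation, *Dnmt3l* was the 1 called, and the median log2 fold change of the list was 0.03 (-0.03 without the trophoblast-marked cells). *Dnmt3b* gave 1049, 1583, 1318 and 866 CPM over retained cells (log2 -0.31 ± 0.23, adjusted p = 0.637). *Tet1*, the TET enzyme gene of the epiblast, gave 120, 114, 151 and 98.1 CPM (log2 0.03 ± 0.21, adjusted p = 0.976). *Tet2* gave 18.8, 16.8, 21.6 and 11 CPM and *Tet3* 29.2, 31.9, 35.5 and 18.5 CPM. For these 4 genes the embryos of the sides overlapped. Whether mutant cells of this line still make *Tet* RNA was not examined here, so these levels do not sort cells by genotype.

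Imprinted genes, which are read from one parental copy, had differences of either sign. Of 36 tested, *H19* alone was called higher by edgeR and 0 lower. At an unadjusted p under 0.05 by edgeR 9 were higher and 8 lower, against 1027 and 793 of all 14282 genes. DESeq2 and limma both called 2 higher and 0 lower. Of the 36, 14 lay above both other embryos and 12 below, against 24.7% and 18.3% of all genes. Their median log2 fold change was 0.13, and 0.19 without the trophoblast-marked cells, where 0 of 36 were called. *Mest*, a gene read from the paternal copy, gave 372, 439, 670 and 954.2 CPM (log2 0.96 ± 0.19, adjusted p = 0.125) and *Snrpn*, also read from the paternal copy, gave 491, 612, 270 and 337 CPM (log2 -0.91 ± 0.15, adjusted p = 0.096). Among streak-set cells *Mest* gave 390, 362, 603 and 1079 CPM and *Snrpn* 444, 518, 262 and 421 CPM, and neither gene overlapped.

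Lists of cell state held no gene called by edgeR. Of 20 cell cycle genes the median log2 fold change was 0.08, 10 lay above both other embryos and 0 below (24.7% and 18.3% of all genes), 3 were higher and 0 lower at an unadjusted p under 0.05 in the edgeR test, and DESeq2 and limma called 0. Of 10 immediate-early and heat-shock genes tested the median was 0.86, with 4 higher and 0 lower at that p, and DESeq2 called 2 and limma 0. The median of those 10 was 0.55 without the trophoblast-marked cells and 0.12 in the streak set. The 10 mitochondrially encoded genes tested had a median of 0.02, the 17 genes of glucose uptake and glycolysis 0.05, and the 12 p53 targets -0.04. In the glucose and glycolysis list 3 were higher and 1 lower at that p, DESeq2 called *Hk1* and *Pfkp* higher, and limma called *Pfkp*. The wider visceral endoderm list, with 6 of 12 genes tested, had a median of 0.10, and *Lrp2*, the endocytic receptor megalin, gave 47.6, 59.2, 12.6 and 10.48 CPM and missed the threshold in the edgeR test (log2 -2.26 ± 0.20, adjusted p = 0.0128), while DESeq2 and limma both called it lower. Of 14 germline genes 6 were tested and 0 called, with *Ddx4* at 15.7, 12, 4.31 and 5.46 CPM.

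Within the streak set, where all 4 embryos had at least 16 cells, 1 gene was called. It held 61, 55, 16 and 27 cells. Beside *Gm13394* no gene was called higher and 0 of 14050 were called lower by edgeR, a share of 0%, while 532 were higher and 486 lower at an unadjusted p under 0.05 and DESeq2 called 39 and 6. Leaving out any of the 4 embryos left 0 calls in either direction. *Gm13394* was tested and missed the threshold without embryo 1 or 2, and was below the filter and not tested without embryo 4 or 5. Of the 23 genes called over retained cells, 19 were tested here, 14 being higher and 5 lower in embryos 4 and 5. Their median log2 fold change was 0.81. The streak set is part of the retained cells in which the 23 were called, so these values are a description only. Both embryos of the 4 and 5 side lay above both others for 20.2% of all genes and below for 17.3%. In the epiblast set of 20, 31, 9 and 5 cells, 0 of 13752 genes were called lower, with 753 higher and 997 lower at an unadjusted p under 0.05 and 214 and 58 called by DESeq2. Without embryo 1, 2, 4 or 5, 0, 0, 18 and 1 were called higher and 0, 0, 4 and 0 lower. Of its cells, 3 of the 9 and 3 of the 5 cells of embryos 4 and 5 were trophoblast-marked. The 2 smallest sets, 9 and 5 cells, limit what that comparison can show.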

How the data were processed

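The deposited table holds unnormalized counts of reads for each gene in each cell, which the authors made with HISAT2 2.1.0 and featureCounts on GRCm38, per the labels, using an Ensembl gene annotation whose release the study's methods name. How the counter treated strand and reads with several matches is not given in the sources used here. The table held 55487 genes and 1824 cells, 0 columns were left without a sample, and 55141 identifiers matched a symbol. Positions are from GENCODE M21 on GRCm38, a different annotation release.

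Cells were classed by markers, since no cell annotation was among the files used. No doublet caller was run, and the methods describe sorting of singlets. Counts were summed per embryo and tested with edgeR 4.0.16 (TMM, quasi-likelihood, genes at 1 CPM or more in at least 2 of 4 sums, Benjamini-Hochberg over all genes) under R 4.3.3, with limma 3.58.1 and DESeq2 1.42.0 as alternatives. The p-values measure the spread between these numbered plates only, each of which may hold more than 1 animal. Intervals are for numbers of cells and cover counting error only, leaving out variation between embryos, plates and sorts. Reads without molecular identifiers are not independent molecules. The edgeR step was tested on simulated data with known changes. It called 1 of 98 genes simulated with an absolute log2 change of 1, and 38 of 94 with a change of 2. Of 13698 unchanged genes it called 0. Every simulated gene had the same spread between replicates, the common value of the retained-cell fit, which the fits to the data did not assume. The counts of called genes hold for that setting only. In it, most changes near the fold limit would be missed. Scripts used Python 3.11.15, scipy 1.17.1 and pandas 2.3.3.

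The embryos, marker classes and gene lists were chosen with earlier results of these data known. Named genes were list members plus the 12 called genes with the largest log2 fold change, no overlap and a mean of at least 10 CPM on the higher side. *Asb4*, *Ufsp2*, *Gm15772* and *Sfmbt2* were added after their values were seen. One member of the further trophoblast list is counted in its sums but not reported here.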

Additional observations from a re-analysis of the deposited data

How the results depend on the processing

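No paired analysis was possible because each numbered embryo is a separate animal or pool on its own plate, and the sides share no replicate number. Shares moved mainly with the marker limit. With 2 of 6 markers, extraembryonic ectoderm in embryo 5 was 48.9%, epiblast in embryos 1, 2, 4 and 5 was 72.8%, 78.7%, 75.8% and 55.7%, which ended the split between the sides, and streak 77.2%, 74.5%, 53.8% and 58%. With 4 of 6, extraembryonic ectoderm in embryos 1, 4 and 5 was 0%, 33% and 22.7%, epiblast in the 4 embryos 40.2%, 43.6%, 11% and 11.4%, and streak in embryos 1 and 5 50% and 14.8%. At 50 CPM, extraembryonic ectoderm in embryos 1, 4 and 5 was 0%, 33% and 19.3%, epiblast in embryos 2, 4 and 5 was 50%, 12.1% and 14.8%, and streak in embryo 5 was 23.9%. The 1 extraembryonic ectoderm cell of embryo 1 was also lost (0%) with cells thinned to 100000 reads and in well columns 7 to 12. Visceral endoderm in embryo 4 was 4.35% in well columns 1 to 6 and 22.2% in columns 7 to 12. The other 115 of 144 share alternatives moved by less than the interval of the share. Detected genes without thinning were 9536.5, 9727, 9149 and 8746.5.

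The count of 23 genes higher over retained cells became 1 with 2 of 6 markers, 3 with markers at 10 CPM, 2 and 10 in well columns 1 to 6 and 7 to 12, 2 without cells at 5 or more further trophoblast markers, and 1 each in the epiblast and streak sets. The first 2 of these settings set more cells aside. It became 228 with DESeq2, 76 with limma on mean CPM, 72 with thinned cells, 69 with a filter of 5 CPM, 66 at adjusted p under 0.05 with no fold limit and 303 of 35251 without a filter. Genes lower, 0 in the main setting, were 69, 3, 10, 7, 7 and 109 under those 6, 2 without the deepest 2% of cells and 1 with library size only. Without embryo 1, 2, 4 or 5, the retained-cell fit called 2, 8, 115 and 139 higher and 0, 0, 46 and 134 lower. Leaving out 1 embryo gave between 0 and 18 higher and between 0 and 4 lower in the epiblast set, and 0 in either direction in the streak set. DESeq2 called 214 and 58 in the epiblast set and 39 and 6 in the streak set. The cause of these shifts was not tested.

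Of 395 pairs of a called gene and an alternative, 129 missed the threshold in the same direction and 5 changed sign. *Fgfbp1* became -5.48 with 2 of 6 markers and -2.69 without the trophoblast-marked cells, *Sfmbt2* -0.74 and -0.59, and *Dnmt3l* -0.090 without those cells (log2). Among genes not called, *Mixl1* became 0.10 in well columns 7 to 12. *Lmo2*, itself a gene of the haematoendothelial rule, became -0.24 without haematoendothelial, erythroid, leukocyte and ectoplacental cells. *Tet1* became -0.063 without embryo 2, -0.29 without embryo 4 and -0.033 with thinned cells. With 2 embryos a side and 34 and 46 retained cells in embryos 4 and 5, genes not called are not shown to be equal.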
